A study of Homo sapiens with 4 samples.

Results

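The insulin-like growth factor (IGF) genes described here are 1 ligand (IGF2), 3 receptors (IGF1R, IGF2R and INSR) and 6 binding proteins (IGFBP2 to IGFBP7), 10 genes out of 57963 in the deposited tables. They were taken by their symbol, from a list chosen with earlier results of these data known. The symbol IGF2 stands on 2 gene IDs, so these 10 genes have 11 rows. The samples were PC3 cells, a human prostate cancer line derived from a bone metastasis, that carried a lentiviral reporter in which elements bound by SOX2 and OCT4 drive a destabilized GFP. The SORE6+ cells came from the GFP+ gate and the SORE6- cells from the GFP- gate of the same reporter line. Both gates shared the reporter, the puromycin selection (5 µg/ml in the labels), medium with 10% serum and passages 18 to 22. There were 2 SORE6+ and 2 SORE6- libraries, numbered 1 and 2 in each gate, from separate pairs of sorted cells. The gates are sorted fractions of 1 stable line, so they say nothing about other prostate cancer lines.

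IGF1 and IGF2 are secreted peptides that promote growth and survival. Both act mainly through IGF1R, a receptor tyrosine kinase, and IGF2 also activates one isoform of the insulin receptor INSR. IGF2R has no kinase; it carries IGF2 to the lysosome and sorts lysosomal enzymes that bear mannose 6-phosphate. IGFBP2 to IGFBP6 bind IGFs with high affinity outside the cell and hold them away from, or release them to, the receptors, while IGFBP7 is a relative with low affinity. Prostate epithelium and prostate cancer are known sites of IGF signaling. The comparison asks which of these genes differ in mRNA between cells with and without reporter activity.

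Levels are given as TPM (transcript abundances), which are scaled by transcript length and add up to 1000000 in each library. TPM keeps no read counts, so the counting error of a gene is unknown and precision rests on the spread between the 2 libraries of a gate. The line expressed all 6 genes of a list of epithelial and PC3 markers, with KRT8 at 1006 and 1054 TPM in SORE6+ libraries, against 892 and 1162 TPM in SORE6- libraries. VIM, on the same list, was at 237 and 142 TPM, against 155 and 74.0 TPM. In SORE6+ cells the means of VIM, KRT19 and CDH1 were higher, those of KRT18 and EPCAM were lower, and that of KRT8 was about the same. Of 6 markers of luminal prostate cells, 3 were under 1 TPM in every library, with KLK3 listed at 0 in all 4. Others were expressed, with TMPRSS2 at 33.5 and 21.0 TPM in SORE6+ libraries, against 29.2 and 20.1 TPM in SORE6- libraries, and FOLH1 at 9.20 and 9.76 TPM, against 11.4 and 11.7 TPM. Of the reporter's own factors, SOX2 was at 0.0803 and 0 TPM in SORE6+ libraries, against 0.0207 and 0.0196 TPM in SORE6- libraries, and POU5F1, which encodes OCT4, was at 3.09 and 2.61 TPM, against 2.82 and 2.14 TPM. Genes of mitochondrial DNA held 16.6% and 19.2% of the TPM in SORE6+ libraries, against 15.6% and 18.5% in SORE6- libraries. In bulk RNA of a gate, fewer cells that express a gene and less RNA per cell cannot be told apart.

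For the comparison, a value of 1 was added to each TPM before taking log2, so that fold changes of low genes come out too small. With limma, 17642 genes that reached 1 TPM in 2 or more libraries were compared, and p-values were adjusted across this whole set. To pass, a gene needed a 1.5-fold difference or more together with an adjusted p below 0.1. Among the members 9 were tested and 1, IGFBP7, was not. In limma 0 genes passed as higher and 0 as lower, which is 0% of the genes tested in either direction, so 0 of the 9 members passed. An unadjusted p under 0.05 was found for 673 genes, or 3.81% of those tested, and for 1 of the 9 members, IGFBP5. For a single gene, the smallest two-sided p that an exact permutation test can give with 2 libraries in each gate is 0.333. The labels do not say whether the 2 libraries of a gate came from separate cultures, so the limma p-values measure only the spread between these libraries. The median log2 fold change of the 9 members was 0.04, and that of all genes tested was −0.05.

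IGFBP3, IGFBP6, IGFBP4 and IGFBP2 had the highest levels, with means over the 4 libraries of 195, 122, 119 and 111 TPM. Their ranges overlapped from each gene to the next, so these data set no order among them. All 4 lay above the mean of 92.3% to 96.1% of the genes tested. Below them IGF2R averaged 30.9 TPM, IGFBP5 10.7 TPM and INSR 5.40 TPM, and each range was apart from the next. IGF1R averaged 3.03 TPM and IGF2 1.62 TPM, and these ranges overlapped. IGFBP7 was under 1 TPM in every library.

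**Figure D1:**
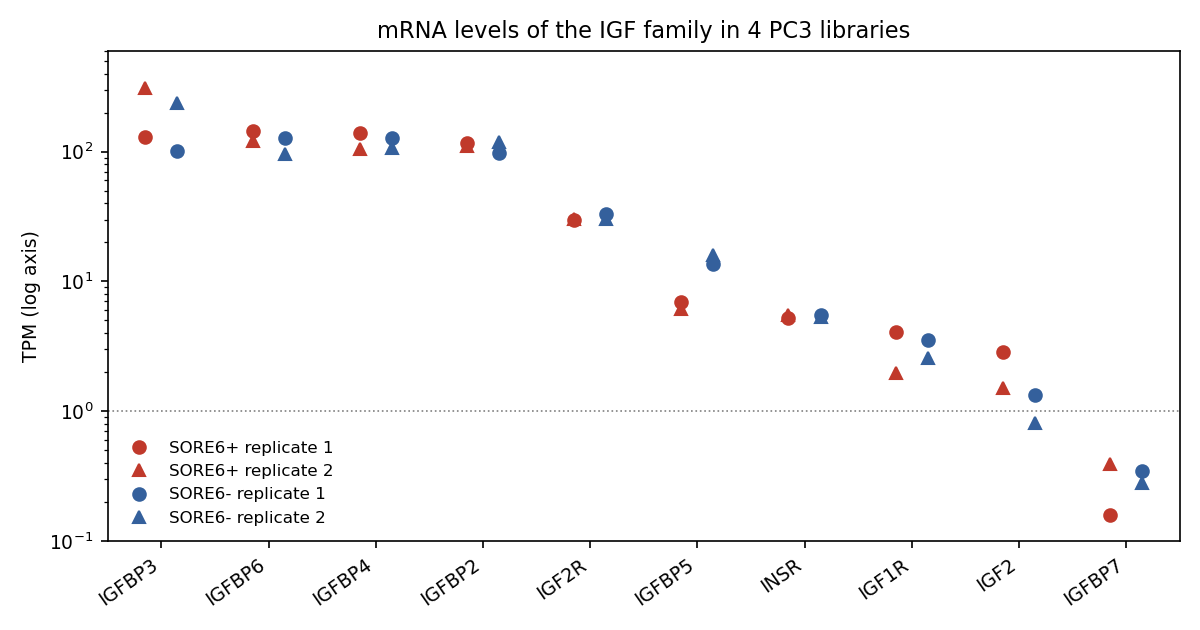
TPM on a log axis for the 10 genes in the 4 libraries, SORE6+ (red) left of SORE6- (blue), with circles for replicate 1 and triangles for replicate 2; the dotted line marks 1 TPM. The red points lie below the blue ones for IGFBP5 and above them for IGF2, and IGFBP3 splits by replicate number in both gates.

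IGFBP5 had the clearest difference between the gates, with a mean level in SORE6+ cells that was 0.444 of that in SORE6- cells. Its protein, a secreted binding protein that also attaches to extracellular matrix, is encoded on the minus strand of chromosome 2 of GRCh38 from 216672105 to 216695525 (ENSG00000115461). IGFBP5 was at 6.92 and 6.17 TPM in SORE6+ libraries, against 13.6 and 15.9 TPM in SORE6- libraries. Both SORE6+ libraries were low and both SORE6- libraries were high, so the gates did not overlap. The means were 6.55 ± 0.532 and 14.8 ± 1.64 TPM (SD, n = 2 each). Within replicate 1 the ratio of SORE6+ to SORE6- was 0.509, and within replicate 2 it was 0.388. The log2 fold change of IGFBP5 was −1.06 (standard error 0.16, limma unadjusted p = 0.00246, adjusted p = 0.556). IGFBP5 thus did not pass in this fit, which has the gate as its only term. Fits with the replicate number as a further term are given at the end. With 1 library left out the log2 fold change of IGFBP5 lay between −1.17 and −0.95. By p-value IGFBP5 stood at place 78 of all genes tested and at place 3 of the 12826 protein-coding genes tested. A log2 fold change as low or lower was found in 224 of all genes tested, or 1.27%, and in 18 of the protein-coding ones, or 0.140%. Having both SORE6+ libraries below both SORE6- libraries held for 1 of the 9 members and for 20.2% of all genes tested.

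Fibroblasts are a known source of IGFBP5, so the list of 6 fibroblast markers was read beside it. The TPM summed over the list was 31.7 and 15.5 in SORE6+ libraries, against 41.2 and 14.9 in SORE6- libraries. Most of it was COL1A1, at 27.7 and 12.9 TPM in SORE6+ libraries, against 36.6 and 12.4 TPM in SORE6- libraries. Of the 6 markers, COL1A2, DCN and PDGFRB were under 1 TPM in every library. DCN, which encodes a small matrix proteoglycan, was at 0.133 and 0.154 TPM in SORE6+ libraries, against 0.547 and 0.528 TPM in SORE6- libraries. Other members of the list lay the other way, with LUM at 3.09 and 1.99 TPM in SORE6+ libraries, against 2.61 and 1.45 TPM in SORE6- libraries, and COL1A2 at 0.305 and 0.122 TPM, against 0.125 and 0.0673 TPM. COL3A1 was at 0.431 and 0.382 TPM in SORE6+ libraries, against 1.21 and 0.256 TPM in SORE6- libraries. PDGFRB was at 0.0255 and 0.0405 TPM, against 0.0262 and 0.205 TPM. In SORE6+ cells the means of COL1A1, COL3A1, DCN and PDGFRB were lower, and those of LUM and COL1A2 were higher. Of these genes the gates were apart in DCN alone. The libraries came from a sorted cancer cell line rather than from tissue, and a part of fibroblasts in the IGFBP5 result was not tested. The opposite-strand gene AC007563.2 overlaps IGFBP5 and was at 0 and 0.409 TPM in SORE6+ libraries, against 0.223 and 0 TPM in SORE6- libraries. The sources used here do not give whether reads were counted by strand, and 4.18% of the 31-base sequences of IGFBP5 also occur in AC007563.2.

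The RefSeq promoter sequences of IGFBP5, IGFBP3 and IGFBP4 are shown because these members hold a TATA box or a variant of it in front of their start. The letters are TATTTA in IGFBP5, TATATA in IGFBP3 and TATAAA in IGFBP4, and IGFBP4 had a log2 fold change of 0.04. A link between this element and the levels was not tested. Promoters cover 250 bases before to 50 bases after a start and were found for 8 of the 10 members, 10 promoters in all. For IGF2 and IGFBP7 none was read. Capitals mark a TATA box, searched on the sense strand as TATAAA, as its variant TATATA or as its variant TATTTA. Counted from the start, it begins at −31 in IGFBP5 (chr2:216695500-216695799, minus strand), at −30 in IGFBP3 (chr7:45921223-45921522, minus strand) and at −29 in IGFBP4 (chr17:40443200-40443499, plus strand), in build GRCh38.p14.
IGFBP5: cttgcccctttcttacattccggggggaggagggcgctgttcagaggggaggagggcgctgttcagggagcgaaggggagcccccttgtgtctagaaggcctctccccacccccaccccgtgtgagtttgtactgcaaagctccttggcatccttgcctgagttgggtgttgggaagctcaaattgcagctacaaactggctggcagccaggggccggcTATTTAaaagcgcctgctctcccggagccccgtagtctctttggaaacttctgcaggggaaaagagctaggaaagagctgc
IGFBP3: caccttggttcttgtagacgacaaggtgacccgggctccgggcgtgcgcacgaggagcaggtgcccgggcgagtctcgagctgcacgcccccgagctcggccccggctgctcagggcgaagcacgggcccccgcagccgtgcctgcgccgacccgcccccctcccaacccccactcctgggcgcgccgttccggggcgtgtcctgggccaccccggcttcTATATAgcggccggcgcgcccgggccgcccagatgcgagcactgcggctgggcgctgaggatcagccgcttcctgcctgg
IGFBP4: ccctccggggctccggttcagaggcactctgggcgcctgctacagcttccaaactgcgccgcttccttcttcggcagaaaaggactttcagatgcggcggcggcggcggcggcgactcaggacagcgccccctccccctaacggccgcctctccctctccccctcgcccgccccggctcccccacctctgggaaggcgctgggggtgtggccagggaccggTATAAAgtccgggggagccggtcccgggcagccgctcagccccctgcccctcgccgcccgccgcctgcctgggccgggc
These letters occur in 3 of the 10 promoters of the members and in 15.3% of the 35116 promoters in the table. The GC box GGGCGG, searched on both strands, is in 45.0% of all promoters and in at least 1 promoter of 7 members, IGFBP5 not among them. The promoter of IGFBP5 is 59.0% G and C, close to the median of 58.7% over all promoters, and that of IGFBP3 is 74.7%. The octamer ATGCAAAT bound by OCT4, which is in 1.77% of all promoters, and the SOX core ACAATG, in 10.8%, both searched on both strands, were in 0 of the 10 promoters.

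IGFBP2, which binds integrins as well as IGFs, is the neighbor of IGFBP5 on chromosome 2, where it ends 7.67 kb away on the other strand (ENSG00000115457, 216632828 to 216664436). IGFBP2 was at 117 and 110 TPM in SORE6+ libraries, against 98.0 and 118 TPM in SORE6- libraries. The gates overlapped, and the direction differed between the replicate numbers. For IGFBP2 the log2 fold change was 0.07 (standard error 0.13, limma adjusted p = 1.00). Within a library, IGFBP2 mRNA exceeded that of IGFBP5 by 16.8 and 17.8 times in SORE6+ libraries, against 7.21 and 7.43 times in SORE6- libraries. The other neighboring binding proteins are IGFBP1 and IGFBP3, 18.6 kb apart on chromosome 7. IGFBP1, known for its control by insulin in liver, was at 0.667 and 0.486 TPM in SORE6+ libraries, against 0.721 and 0.310 TPM in SORE6- libraries.

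IGF2 had a low level and was the 1 member for which the SORE6+ libraries both exceeded the SORE6- libraries. Of the genes tested, 10.9% had this order. It is an imprinted growth factor gene with several promoters, on the minus strand of chromosome 11 from 2129112 to 2149603 (ENSG00000167244). IGF2 was at 2.84 and 1.51 TPM in SORE6+ libraries, against 1.32 and 0.803 TPM in SORE6- libraries. The lower SORE6+ library was close to the higher SORE6- library, and replicate 1 was the higher one in both gates. The ratio of SORE6+ to SORE6- was 2.15 within replicate 1 and 1.88 within replicate 2. On the log2 scale the difference for IGF2 came to 0.60 (standard error 0.32, limma unadjusted p = 0.127, adjusted p = 1.00), and IGF2 stood at place 1865 by p-value. A log2 fold change as high or higher was found in 377 of all genes tested, or 2.14%, and in 76 of the protein-coding ones, or 0.593%. Leaving out the first SORE6+ library gave 0.30, and leaving out the second gave 0.91. Of the genes tested, 12.7% had a lower mean TPM than IGF2.

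The other row of the symbol IGF2 is ENSG00000129965, which GENCODE v29 names INS-IGF2, a transcript that runs from the insulin gene into IGF2. It was listed at 0 in all 4 libraries, as was a further ID, ENSG00000284779, that carries no symbol in the tables and the name IGF2 in GENCODE v29. Of the 31-base sequences of IGF2, 73.6% also occur in other genes, most often in ENSG00000284779. AC132217.1 is an RNA annotated on the same strand inside the 3' end of IGF2, from 2129121 to 2129964, and was looked up after its values had been seen. It was at 2.79 and 1.88 TPM in SORE6+ libraries, against 0.650 and 0.194 TPM in SORE6- libraries. Its gates did not overlap either, with means of 2.34 ± 0.646 and 0.422 ± 0.323 TPM (SD, n = 2 each). Only the SORE6+ libraries reached 1 TPM, so AC132217.1 entered the fit through the gate where it was high. Its log2 fold change of 1.24 (standard error 0.30) is thus a description alone. Of its 31-base sequences 93.3% are also in IGF2, so reads from this end cannot be told apart by their sequence and the division of TPM between both genes is an estimate of the quantification. IGF2-AS, on the opposite strand, was at 0.0265 and 0.0254 TPM in SORE6+ libraries, against 0.0274 and 0 TPM in SORE6- libraries. H19, the imprinted noncoding neighbor of IGF2, was at 0.933 and 1.13 TPM, against 0.791 and 0.722 TPM.

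The 5 tested genes whose pattern over the 4 libraries was most like that of IGF2 were LINC01795, HMGA1P8, PPFIA4, PFKFB3 and NOX5. The measure was the Euclidean distance between values of log2(TPM + 1) centered on each gene's mean, which was 0.0770 to 0.126 for these genes. Of them PFKFB3, a regulator of glycolysis, was at 27.8 and 19.5 TPM in SORE6+ libraries, against 17.0 and 14.1 TPM in SORE6- libraries. A likeness over 4 libraries is a description alone.

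**Figure D2:**
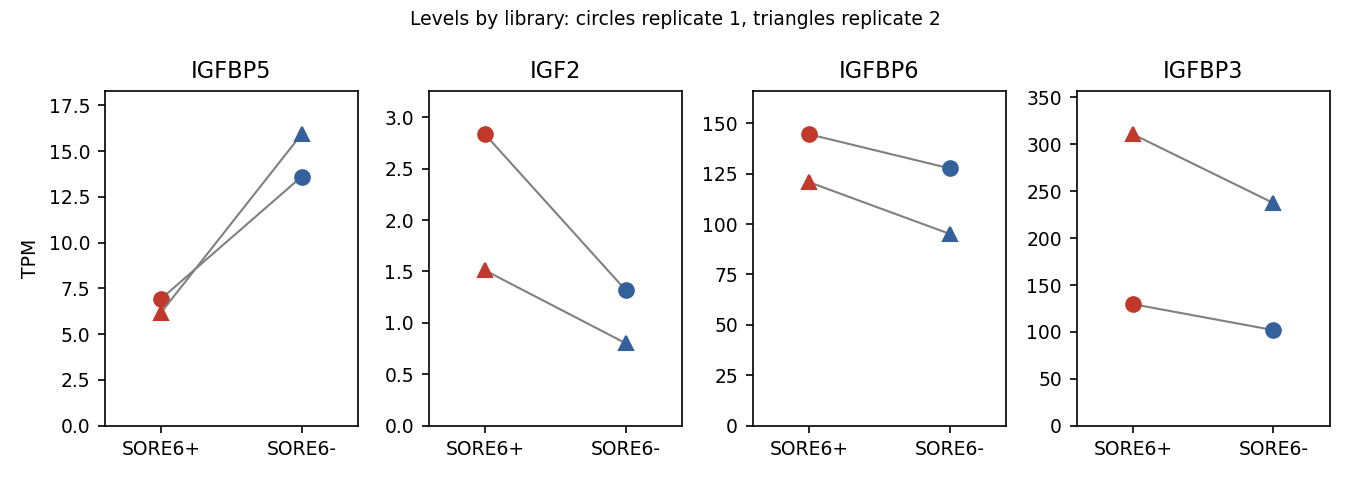
TPM of IGFBP5, IGF2, IGFBP6 and IGFBP3 in each library, SORE6+ left of SORE6-, on axes that start at 0; lines join libraries of the same replicate number (circles 1, triangles 2). IGFBP5 is at 6.17 to 6.92 TPM in SORE6+ libraries, below 13.6 to 15.9 TPM in SORE6- libraries, while the lines of IGFBP3 lie far apart and slope the same way.

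IGFBP3 and IGFBP6 were higher in the SORE6+ library of both replicate numbers, but their gates overlapped. IGFBP3 is the main carrier of IGFs in blood (ENSG00000146674, chromosome 7, 45912245 to 45921874, minus strand). It was at 130 and 311 TPM in SORE6+ libraries, against 102 and 237 TPM in SORE6- libraries. The replicate 2 libraries held 2.40 times the level of replicate 1 in SORE6+ cells and 2.33 times in SORE6- cells, and the ratio of SORE6+ to SORE6- was 1.27 within replicate 1 and 1.31 within replicate 2. For IGFBP3 the log2 fold change was 0.37 (standard error 0.61, limma adjusted p = 1.00). This standard error includes the spread between the replicate numbers. With the replicate number as a further term the standard error was 0.041 (limma unadjusted p = 0.00195, adjusted p = 0.235). In the fit with the gate alone, the log2 fold change became −0.24 when the first SORE6- library was left out and −0.26 when the second SORE6+ library was. Leaving out the second SORE6- library gave 0.97, and leaving out the first SORE6+ library gave 0.99. In each of these fits the replicate numbers are unbalanced between the gates, so the values also take in the difference between them.

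IGFBP6, which prefers IGF2 to IGF1, lies on the plus strand of chromosome 12 from 53097436 to 53102345 (ENSG00000167779). It was at 145 and 121 TPM in SORE6+ libraries, against 128 and 95.1 TPM in SORE6- libraries. The gates overlapped, since the SORE6+ library of replicate 2 was below the SORE6- library of replicate 1. The means were 133 ± 16.8 and 111 ± 23.0 TPM (SD, n = 2 each), and the ratio of SORE6+ to SORE6- was 1.13 within replicate 1 and 1.27 within replicate 2. The difference for IGFBP6 on the log2 scale was 0.26 (standard error 0.19, limma adjusted p = 1.00), which became 0.05 when the second SORE6- library was left out. Relative to IGFBP5, IGFBP6 mRNA was 20.9 and 19.6 times as abundant in SORE6+ libraries, against 9.39 and 5.98 times in SORE6- libraries. Being higher within both replicate numbers held for 3 of the 9 members (IGF2, IGFBP3 and IGFBP6) and for 23.2% of all genes tested, and being lower within both held for 1 (IGFBP5) and for 42.3%.

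The promoter of IGFBP6 (chr12:53097417-53097716, plus strand, GRCh38.p14) is shown because it is the 1 promoter of a member that holds a SOX core or a FOXO core. Capitals mark ACAAAG, a core bound by SOX proteins, which begins at −218 from the start, and GTAAACA, bound by FOXO factors, which begins at −186.
IGFBP6: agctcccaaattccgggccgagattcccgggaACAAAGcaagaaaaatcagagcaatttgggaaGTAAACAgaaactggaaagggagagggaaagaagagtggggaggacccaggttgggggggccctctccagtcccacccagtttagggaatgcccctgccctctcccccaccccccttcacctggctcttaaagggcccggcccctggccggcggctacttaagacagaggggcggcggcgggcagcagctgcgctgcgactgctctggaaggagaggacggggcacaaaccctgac
On both strands, ACAAAG is in 16.1% and GTAAACA in 3.42% of all promoters, and both are matches of letters alone.

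IGFBP4, which mostly restrains IGF action until it is cleaved, was at 138 and 105 TPM in SORE6+ libraries, against 127 and 107 TPM in SORE6- libraries. The gates overlapped, and replicate 1 was the higher one in both. The log2 fold change of IGFBP4 (ENSG00000141753, chromosome 17, 40443461 to 40457731, plus strand) was 0.04 (standard error 0.19, limma adjusted p = 1.00). It became −0.15 when the first SORE6+ library was left out and −0.08 when the second SORE6- library was. IGFBP7 (ENSG00000163453, chromosome 4, 57030773 to 57110385, minus strand) was at 0.159 and 0.390 TPM in SORE6+ libraries, against 0.342 and 0.281 TPM in SORE6- libraries. It was at most 0.390 TPM and was not tested, and it overlaps POLR2B, an abundant gene on the opposite strand.

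Summed over the 6 binding proteins, the mRNA came to 536 and 653 TPM in SORE6+ libraries, against 469 and 574 TPM in SORE6- libraries, and replicate 2 was the higher one in both gates. IGFBP3 made up 24.2% and 47.6% of this sum in SORE6+ libraries, against 21.7% and 41.3% in SORE6- libraries. This share was higher in SORE6+ cells within both replicate numbers, and it differed more between the replicate numbers than between the gates. IGFBP5 made up 1.29% and 0.945% in SORE6+ libraries, against 2.90% and 2.77% in SORE6- libraries, and this share differed more between the gates than between the replicate numbers.

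**Figure D3:**
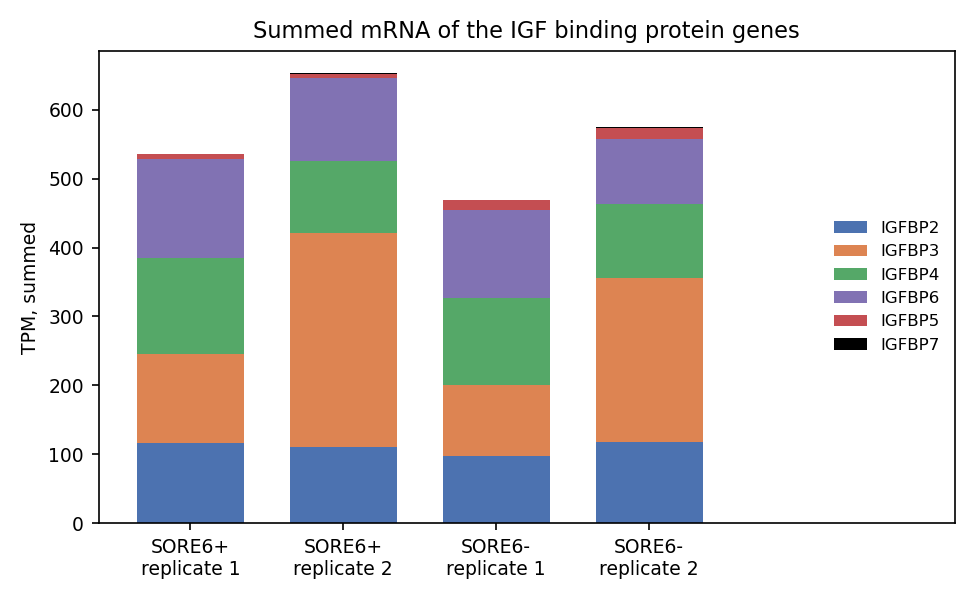
Summed TPM of the 6 binding protein genes in each library, stacked by gene on an axis that starts at 0, with the SORE6+ libraries left of the SORE6- libraries. The IGFBP3 layer is thickest in both replicate 2 libraries (311 and 237 TPM), and the thin IGFBP5 layer is 6.17 to 6.92 TPM in SORE6+ libraries and 13.6 to 15.9 TPM in SORE6- libraries.

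Of the receptors, IGF2R and INSR had similar levels in both gates, while IGF1R varied more among the libraries. IGF2R (ENSG00000197081, chromosome 6, 159969099 to 160113507, plus strand) was at 29.7 and 30.5 TPM in SORE6+ libraries, against 33.0 and 30.2 TPM in SORE6- libraries. INSR (ENSG00000171105, chromosome 19, 7112255 to 7294034, minus strand) was at 5.20 and 5.55 TPM, against 5.54 and 5.33 TPM. Both genes varied little among the 4 libraries, and their gates overlapped. Their log2 fold changes were −0.07 (standard error 0.12) for IGF2R and −0.01 (standard error 0.16) for INSR, each with a limma adjusted p of 1.00. Under upper-quartile scaling both had the other sign.
IGF1R (ENSG00000140443, chromosome 15, 98648539 to 98964530, plus strand) was at 4.06 and 1.96 TPM in SORE6+ libraries, against 3.52 and 2.57 TPM in SORE6- libraries. It was higher in replicate 1 of both gates, and the SORE6+ libraries held both the highest and the lowest value. The log2 fold change of IGF1R was −0.06 (standard error 0.34, limma adjusted p = 1.00), and it became −0.44 when the first SORE6+ library was left out and 0.33 when the second was. In every library IGF2R, the receptor without a kinase, had the largest share of receptor mRNA, at 76.2% and 80.2% in SORE6+ libraries, against 78.5% and 79.3% in SORE6- libraries. IGF1R had the smallest, at 10.4% and 5.14% in SORE6+ libraries, against 8.37% and 6.75% in SORE6- libraries.

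The promoter of IGF2R (chr6:159968832-159969131, plus strand, GRCh38.p14) is shown because the receptor that was most abundant here holds an element of lysosomal genes at 3 places. Capitals mark TCACGTGA, the core of the CLEAR element bound by TFEB, a regulator of lysosomal genes, searched on both strands, which read the same. It begins at −133, −75 and −29 from the start.
IGF2R: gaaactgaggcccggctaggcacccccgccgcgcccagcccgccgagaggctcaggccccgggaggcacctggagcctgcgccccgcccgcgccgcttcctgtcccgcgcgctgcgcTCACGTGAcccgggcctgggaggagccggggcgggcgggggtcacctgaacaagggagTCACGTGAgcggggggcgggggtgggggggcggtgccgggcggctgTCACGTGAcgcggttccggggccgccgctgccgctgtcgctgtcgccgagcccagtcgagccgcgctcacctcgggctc
This core is in 0.980% of all promoters, and 4 of the 35116 promoters hold it at 3 or more places. The match is of letters alone, and IGF2R had about the same level in all 4 libraries.

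Among the members, the gate carried most of the variation of 2 genes and the replicate number that of 4. For each gene the variation of log2(TPM + 1) over the 4 libraries was divided into the part between gates, the part between replicate numbers and the rest. The gate took 97.1% in IGFBP5 and 58.9% in IGF2. The replicate number took 93.1% in IGFBP4, 91.9% in IGFBP3, 86.1% in IGF1R and 60.8% in IGFBP6. Of all genes tested, the gate took the larger part of the variation in 27.7% and the replicate number in 51.9%, which is close to the shares among the 9 members.

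**Figure D4:**
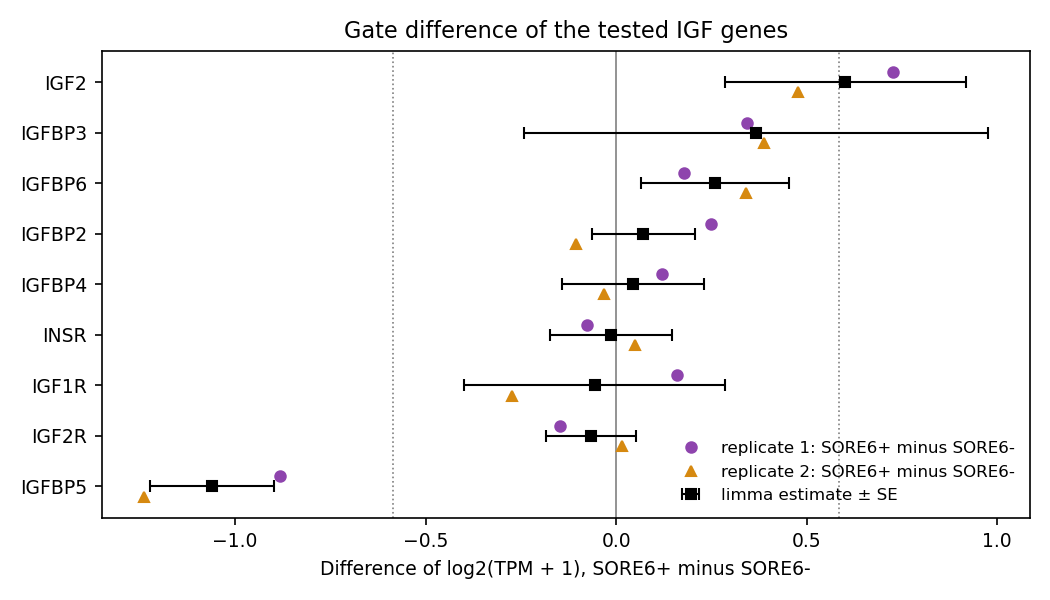
Difference of log2(TPM + 1), SORE6+ minus SORE6-, for the 9 tested members: black squares with bars are limma estimates ± standard error, and purple circles and orange triangles are the differences within replicates 1 and 2. Dotted lines mark 1.5-fold; IGFBP5 lies at −1.06, IGF2 at 0.60, and IGFBP3 has the widest bar (0.61).

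Other genes of the IGF axis were read from 5 lists, and 0 of their genes passed in limma in either direction. Of 6 further ligands, receptors and binding proteins, which include IGF1 and INS, all were under 1 TPM in every library, and IGF1 and INS were listed at 0. IGFBPL1, a relative of the binding proteins, was at 0.409 and 0.293 TPM in SORE6+ libraries, against 0.106 and 0.300 TPM in SORE6- libraries. IGFALS, which joins IGFBP3 in the serum complex, was at 0.0957 and 0.0915 TPM, against 0.175 and 0.0829 TPM. Of 13 proteases that cleave binding proteins and their inhibitors, 8 were tested, 6 had a higher and 2 a lower mean, and 2 had an unadjusted p under 0.05 in limma. Of all genes tested, 38.8% had a higher and 61.2% a lower mean on the log2 scale, and 3.81% had such a p. The median log2 fold change of these 8 was 0.17, against −0.05 over all genes tested. STC1, a secreted inhibitor of the protease PAPPA, was at 7.59 and 6.68 TPM in SORE6+ libraries, against 4.61 and 4.40 TPM in SORE6- libraries (log2 fold change 0.56, limma unadjusted p = 0.0259, adjusted p = 1.00). CTSD, a lysosomal protease, had a log2 fold change of 0.33 (limma unadjusted p = 0.0428, adjusted p = 1.00) and was at 386 and 335 TPM, against 285 and 288 TPM. Both genes had gates that did not overlap, as did C1S, so 3 of the 8 were above in both SORE6+ libraries and 0 below, against 10.9% and 20.2% of all genes tested, while PAPPA itself was at 0.159 and 0.0730 TPM in SORE6+ libraries, against 0.174 and 0.0747 TPM in SORE6- libraries. STC2, another PAPPA inhibitor, was at 286 and 124 TPM, against 316 and 130 TPM, and HTRA1, a protease that cleaves IGFBP5, was at 38.3 and 33.3 TPM, against 38.5 and 27.5 TPM. MMP7, a matrix protease, was at 0.832 and 1.70 TPM, against 1.64 and 2.57 TPM, with a log2 fold change of −0.46 (limma adjusted p = 1.00).
Of 10 genes for receptor processing, sorting and co-receptors, 7 were tested, and their median log2 fold change was 0.11. Of these 7, 5 had a higher and 2 a lower mean, against 38.8% and 61.2% of all genes tested. LRP1, an endocytic receptor that also binds IGFBP3, was at 15.6 and 15.1 TPM in SORE6+ libraries, against 11.4 and 11.3 TPM in SORE6- libraries. Its gates did not overlap, as in DDR1 and TMEM219. This makes 3 of the 7 above and 0 below, against 10.9% and 20.2% of all genes tested. The log2 fold change of LRP1 was 0.41 (limma unadjusted p = 0.0328, adjusted p = 1.00). DDR1, a collagen receptor that works with IGF1R, was at 158 and 134 TPM, against 133 and 123 TPM. M6PR, the other mannose 6-phosphate receptor, was at 57.3 and 62.5 TPM, against 59.0 and 75.4 TPM, and TMEM219, a receptor for IGFBP3, was at 40.0 and 39.4 TPM, against 39.0 and 34.5 TPM.
Of 14 adaptors and inhibitors that act at the receptors, 13 were tested, and 8 had a higher and 5 a lower mean. An unadjusted p under 0.05 in limma was found for 0 of them. Over all genes tested these shares were 38.8% higher, 61.2% lower and 3.81% with such a p. The adaptor GRB2 was at 136 and 131 TPM in SORE6+ libraries, against 119 and 118 TPM in SORE6- libraries, and SHC1 at 103 and 96.3 TPM, against 90.2 and 80.0 TPM. The gates of both did not overlap. In the whole list both SORE6+ libraries were above in 4 genes (GRB2, SHC1, PTPN1 and SH2B2) and below in 1 (CRK), against 10.9% and 20.2% of all genes tested. GRB10, an inhibitor of both receptor kinases, was at 53.3 and 39.0 TPM, against 47.9 and 38.8 TPM. SH2B2 and GRB14 had the largest log2 fold changes of this list by size, 0.34 and −0.31.
Of 9 genes of the IGF2 locus and of IGF2 RNA control, 5 were tested. There were 3 higher and 2 lower means, against 38.8% and 61.2% of all genes tested. An unadjusted p under 0.05 in limma was found for 0 of the 5, against 3.81% of all genes tested. IGF2BP2, which binds IGF2 mRNA, was at 86.7 and 53.6 TPM in SORE6+ libraries, against 84.9 and 53.3 TPM in SORE6- libraries. HMGA2, a chromatin protein known to promote IGF2 and IGF2BP2 expression, was at 120 and 89.3 TPM, against 138 and 92.5 TPM. CTCF, the insulator protein of the IGF2 and H19 locus, was at 31.3 and 23.6 TPM, against 33.1 and 25.9 TPM, and IGF2BP3 was at 17.4 and 13.7 TPM, against 15.8 and 12.8 TPM. All 4 genes were lower in replicate 2 of both gates.

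**Figure D5:**
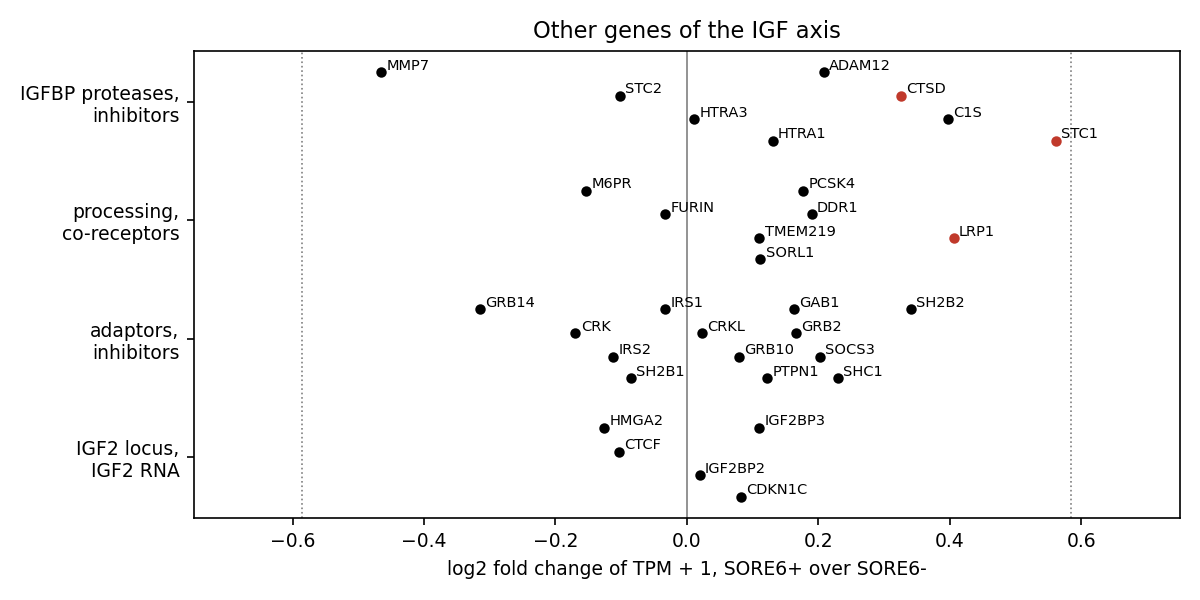
Log2 fold change of TPM + 1, SORE6+ over SORE6-, for the tested genes of 4 lists (rows; points are spread vertically for legibility); red points have an unadjusted limma p under 0.05 and dotted lines mark 1.5-fold. STC1, CTSD and LRP1 are red, at 0.56, 0.33 and 0.41, and no gene lies beyond the dotted lines.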

How the data were processed

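RNA from sorted PC3 cells was sequenced on the BGISEQ-500 platform as 100 bp paired-end reads, 1 library per sample. Read quality was assessed by the authors (FastQC, MultiQC), who then trimmed with Trim Galore, ran salmon for transcript abundance and took gene values from tximport. The submitters' processing notes name GRCh38 and DESeq2; the sources used here give no versions, annotation release or strand setting. The deposited values are TPM per gene, computed by the authors.
Types and positions came from GENCODE v29, which held 57844 of the 57963 gene IDs when the version suffix was ignored. IDs of IGF1R, IGF2R and IGFBP6 have another version there. Values were fitted as log2(TPM + 1) with limma 3.58.1 in R 4.3.3, with the gate as the only term and a trend in the prior variance, for genes that reached 1 TPM in 2 or more libraries. The program was tested on simulated data. Promoter sequences are from RefSeq (GRCh38.p14). Other steps used Python 3.11.15 with pandas 2.3.3, numpy 2.4.6 and matplotlib 3.10.9.
The members, lists, tests and alternatives were chosen with earlier results of these data known. The genes named outside the members are, in each list, the 3 most abundant, the 2 of largest log2 fold change by size and any that passed. For IGF2 the 5 genes of most similar pattern were named. KRT8, KRT18, KRT19, EPCAM, CDH1, VIM, KLK3, TMPRSS2, FOLH1, COL1A1, COL1A2, COL3A1, DCN, LUM, PDGFRB, PAPPA, C1S, PTPN1, CRK, H19, POLR2B, IGF2-AS, AC007563.2 and AC132217.1 were named after their values had been seen. Alternatives were another pseudocount, no filter, scaling factors computed on TPM, protein-coding genes only, a replicate block and each library left out in turn.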

Additional observations from a re-analysis of the deposited data

How the results depend on the processing

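The limma counts of 0 genes higher and 0 lower, over all genes and among the members, were also found with a pseudocount of 0.1, no filter, relative log expression or upper-quartile factors, protein-coding genes without a block, an adjusted p under 0.05, and each library left out in turn. The replicate numbers are shared between the gates, but no source used here says that a number marks a pair. Same-numbered libraries deviated together from their gate means, r = 0.344 across 17642 genes, which do not count as independent. The replicate block over all genes gave 0 genes higher and 0 lower. In that limma fit an unadjusted p below 0.05 was found for 2982 genes, or 16.9%, and for 4 of the 9 members (IGFBP3, IGFBP5, IGFBP6 and IGF2). The replicate block with protein-coding genes only gave 71 genes higher (0.554%) and 93 lower (0.725%), of 12826. In that fit 1 member was higher, IGF2 (0.60, limma adjusted p = 0.0984), and 1 was lower, IGFBP5 (−1.06, limma adjusted p = 0.0217). Over all alternatives the adjusted p of IGFBP5 ranged from 0.0217 to 1.00 and that of IGF2 from 0.0984 to 1.00. In the limma fit with the block and protein-coding genes only, IGFBP3 had an adjusted p of 0.0367 and IGFBP6 of 0.0758, both below 1.5-fold. Small p-values were common there, since 3174 genes, or 24.7%, had an unadjusted limma p below 0.05, as had 4 of the 9 members. INSR was at 0.0388 with relative log expression and 0.0518 with upper-quartile factors, where IGF2R was at 0.00817. The median of all genes was −0.05 on TPM, and −0.00077 and 0.012 with these factors.
With 1 library left out the lone library of a gate is assumed to vary like the others, and the ranges of log2 fold changes that crossed 0 were −0.26 to 0.99 for IGFBP3, −0.44 to 0.33 for IGF1R, −0.15 to 0.24 for IGFBP4, −0.0626 to 0.206 for IGFBP2, −0.0534 to 0.0264 for INSR, −0.74 to 0.54 for STC2, −0.41 to 0.16 for HMGA2, −0.30 to 0.0940 for CTCF, −0.32 to 0.36 for IGF2BP2, −0.0535 to 0.273 for IGF2BP3, −0.14 to 0.30 for GRB10, −0.11 to 0.37 for HTRA1 and −0.33 to 0.0213 for M6PR. Leaving out 1 library leaves the replicate numbers unbalanced between the gates. These values therefore also take in the difference between the replicate numbers. AC132217.1 and GRB14 had a value in 2 of these 4 fits, since they failed the filter in the others. For genes outside the members, these alternatives were chosen after seeing the data. The paper's methods state a common read depth for the samples. The TPM hold no read counts of genes or libraries, so what depth limits was not worked out.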
